A study of Homo sapiens with 18 samples.

Results

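The 29 genes described here make cholesterol or regulate its supply, and they were followed in LNCaP cells after 72 h with 5 compounds or vehicle. They were taken by symbol from a list of sterol genes that was chosen with earlier results of these data known. They are 29 of the 20145 genes of the deposited table. All 29 passed the filter on low counts, as did 15422 genes in all. The list holds 7 enzymes from acetoacetyl-CoA to farnesyl diphosphate, 3 from there to lanosterol and 9 of the later steps. Another 5 genes encode or regulate the sterol-responsive transcription factors SREBP. The rest are the sterol carrier STARD4 and 4 genes of the liver X receptor (LXR) and cholesterol efflux. The list does not cover every gene of the pathway.

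LNCaP is a human prostate adenocarcinoma line, and a single line was used. The doses were 1 µM for 2-77, 0.2 µM for ACBI, 2 µM for BD98 and 10 µM for both P-16 and ENZA, and the vehicle was DMSO. Every treatment lasted 72 h. ENZA is the antiandrogen enzalutamide, and the labels state no target for the other 4 compounds. All cells grew in RPMI medium with serum and antibiotics, and a stranded messenger RNA kit gave 3 libraries for each of the 6 groups. The labels do not state whether replicates were separate cultures, and the p-values therefore measure only how these libraries vary. The series concerns inhibitors of the bromodomain protein BRD7 in prostate cancer, and the contrasts ask which transcripts differ under each compound.

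Cells build cholesterol from acetyl-CoA through mevalonate, farnesyl diphosphate, squalene and lanosterol. When membrane sterol is low, SCAP carries SREBP proteins from the endoplasmic reticulum to the Golgi, where they are cut and freed to switch on the genes of synthesis, while INSIG proteins hold SCAP back when sterol is plentiful. Oxysterols made from surplus cholesterol activate LXR, which raises the efflux pumps ABCA1 and ABCG1, and in LNCaP cells androgens are known to raise lipid synthesis genes through SREBP.

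The bases just before the start of 6 of these genes are printed, and a link between these bases and the changes below was not tested. RefSeq promoter windows of GRCh38.p14, with 250 bases before and 50 after the gene start, were matched by symbol for 25 of the 29 genes, and ACAT2, FDFT1, SQLE and ABCG1 were not matched. Only the 250 bases before the start are shown, 5′ to 3′ on the strand of the gene. Capitals mark the core of a sterol regulatory element (CACNCCAC, either strand), the NF-Y box CCAAT (either strand), and in ABCA1 also an LXR-type repeat. INSIG1 and LSS were among the largest rises with ACBI, STARD4 had the largest rise of the 29 with ACBI and the largest fall with BD98, SREBF2 encodes SREBP-2, and INSIG2 and ABCA1 were among the largest rises with 2-77, P-16 and ENZA. The windows are chr7:155297628-155297877 on the plus strand for INSIG1, chr21:46228775-46229024 on the minus strand for LSS, chr5:111512536-111512785 on the minus strand for STARD4, chr22:41832855-41833104 on the plus strand for SREBF2, chr2:118088221-118088470 on the plus strand for INSIG2 and chr9:104928156-104928405 on the minus strand for ABCA1.
INSIG1: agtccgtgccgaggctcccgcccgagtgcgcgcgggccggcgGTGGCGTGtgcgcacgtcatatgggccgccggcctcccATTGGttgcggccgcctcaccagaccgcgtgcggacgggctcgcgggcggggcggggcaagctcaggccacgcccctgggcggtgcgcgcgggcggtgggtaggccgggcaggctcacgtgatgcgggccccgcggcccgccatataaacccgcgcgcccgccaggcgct
LSS: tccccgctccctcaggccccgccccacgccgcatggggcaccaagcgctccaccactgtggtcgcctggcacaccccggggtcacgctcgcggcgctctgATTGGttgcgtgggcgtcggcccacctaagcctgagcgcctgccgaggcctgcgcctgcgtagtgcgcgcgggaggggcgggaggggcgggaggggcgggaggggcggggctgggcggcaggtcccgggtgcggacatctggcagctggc
STARD4: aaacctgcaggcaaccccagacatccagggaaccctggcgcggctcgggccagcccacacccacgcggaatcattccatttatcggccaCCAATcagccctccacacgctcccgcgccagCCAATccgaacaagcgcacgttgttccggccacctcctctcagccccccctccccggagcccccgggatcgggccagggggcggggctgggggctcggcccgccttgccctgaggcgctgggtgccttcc
SREBF2: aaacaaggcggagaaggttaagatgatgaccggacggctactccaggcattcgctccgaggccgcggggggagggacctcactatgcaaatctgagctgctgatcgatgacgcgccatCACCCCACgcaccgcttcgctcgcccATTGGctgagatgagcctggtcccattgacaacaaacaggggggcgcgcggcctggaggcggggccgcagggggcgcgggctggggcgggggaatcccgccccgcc
INSIG2: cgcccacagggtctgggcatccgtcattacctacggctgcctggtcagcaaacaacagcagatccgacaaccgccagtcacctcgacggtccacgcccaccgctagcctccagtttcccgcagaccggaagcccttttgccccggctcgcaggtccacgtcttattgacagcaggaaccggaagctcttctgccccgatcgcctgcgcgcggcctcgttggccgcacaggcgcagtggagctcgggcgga
ABCA1: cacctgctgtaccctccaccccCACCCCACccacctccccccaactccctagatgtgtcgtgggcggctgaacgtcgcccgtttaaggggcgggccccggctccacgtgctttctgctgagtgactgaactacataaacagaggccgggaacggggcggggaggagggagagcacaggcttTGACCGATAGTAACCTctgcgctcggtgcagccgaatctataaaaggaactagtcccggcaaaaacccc

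In the whole windows the core CACNCCAC stood in 4 of the 25 genes (16%), against 5.74% of the 27305 promoter windows of all genes in the table. The 4 were SC5D, INSIG1, SREBF2 and ABCA1, at 13, -208, -132 and -228 bases from the start. The longer form TCACNCCAC, which contains the core, stood in SREBF2 alone, at -133, against 1.15% of all windows. CCAAT was found in 15 of the 25 (60%), against 35.7% of all windows. The GC box GGGCGG was found in 22 (88%), against 44.6%, and LSS had 7 of them. The LXR-type repeat, a pair of AGGTCA half-sites 4 bases apart with up to 1 mismatch in each, stood in ABCA1 alone, at -69, against 1.4% of all windows. This search was added after the data had been seen. PMVK, IDI1, CYP51A1, LBR, INSIG2, SREBF1, SCAP, NR1H2 and NR1H3 had neither a sterol core nor a CCAAT match in these windows. Only the first listed window of each gene was searched, and of these genes IDI1, INSIG2 and NR1H3 have 3, 2 and 4 windows. A match says only that the letters are there.

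**Figure D1:**
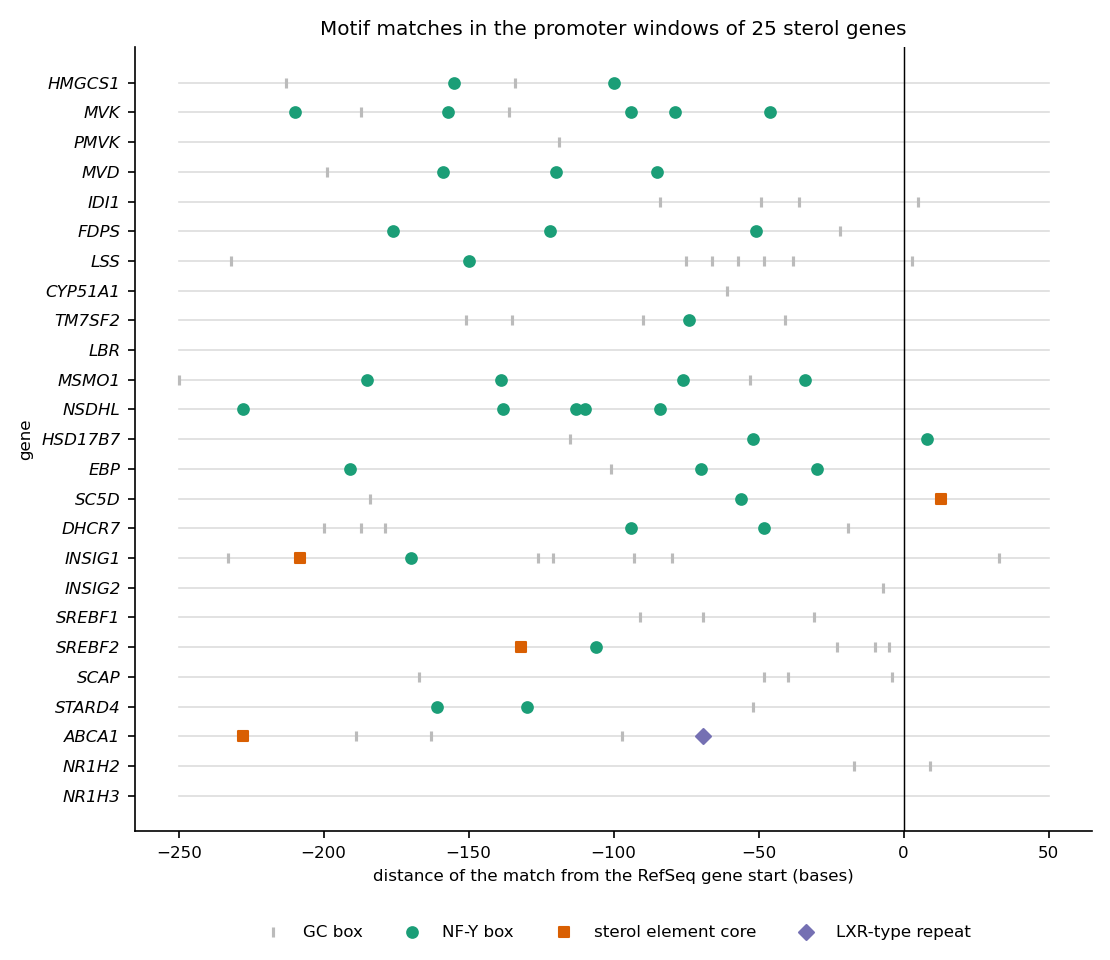
Positions of motif matches in the promoter windows of 25 sterol genes, with distance from the RefSeq gene start in bases on the horizontal axis and 1 gene per line. Squares are sterol element cores, circles NF-Y boxes, ticks GC boxes and the diamond the LXR-type repeat; 4 genes hold a sterol core and 15 an NF-Y box.

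Libraries held 16835113 to 36975052 estimated counts. The level of a gene is given in CPM, that is counts scaled to a common depth, with TMM factors, so every rise or fall is relative to the other genes, and fewer cells of a type and less RNA per cell cannot be told apart. The luminal prostate markers KRT8, KRT18, HOXB13 and FOLH1 averaged at least 254 CPM in every group, while KLK3, KLK2 and TMPRSS2 fell with all 5 compounds. The leukocyte marker PTPRC averaged 0 CPM in every group but ENZA (0.0181 CPM), and the neuroendocrine marker CHGA did not average over 0.109 CPM. CD68, another immune marker, was measured in every group, at 4.25 CPM with ENZA to 6.58 CPM with ACBI. It fell with 2-77, P-16 and ENZA (-0.30, -0.48 and -0.60). The ACBI libraries stood apart. SYP, the other neuroendocrine marker, had 14.4 ± 0.752 CPM with ACBI, against 2.38 ± 0.296 CPM in DMSO (2.60 ± 0.156, edgeR adjusted p = 3.7e-15), and was not called with another compound. Their MKI67 level, a mark of dividing cells, was 9.65 CPM, against 230 CPM in DMSO, and ACBI replicate 3 had 8.6% ribosomal RNA, against 0.639% to 2.09% in the other libraries. The part of these differences in the ACBI results was not tested.

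Sterol genes moved with each compound, and most with ACBI, with which the share of all genes that moved was also the largest. A gene is called changed where edgeR's quasi-likelihood test gave a Benjamini-Hochberg adjusted p under 0.05 over all 15422 genes, and the shares of all genes called are given beside the first count of each contrast. With ACBI 19 of the 29 rose and 5 fell, where 35.4% of all genes rose and 36.6% fell. The 5 not called were SQLE, NSDHL, HSD17B7, NR1H2 and NR1H3, and the median log2 fold change of the 29 was 0.41 against -0.01 for all genes. With 2-77, 7 rose and 8 fell, where 20.5% of all genes rose and 20.2% fell. With BD98, 5 rose and 10 fell, where 24.5% of all genes rose and 24.5% fell. With P-16, 6 rose and 3 fell, where 12.4% of all genes rose and 11.6% fell, and with only P-16 and DMSO in the fit 10 rose and 5 fell. With ENZA, 5 rose and 12 fell, where 18.2% of all genes rose and 18.1% fell. The medians of the 29 were -0.05, -0.05, 0.02 and -0.09 with 2-77, BD98, P-16 and ENZA. The share of the 29 called was above that of all genes in every one of these contrasts, least so with BD98 and most so with ENZA. With library totals in place of TMM factors, BD98 had 8 rises and 6 falls, and PMVK, FDFT1, DHCR7 and SREBF1 were no longer called (edgeR adjusted p of 0.135 to 0.281). All 5 contrasts share the 3 DMSO libraries, so their likeness is not independent.

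**Figure D2:**
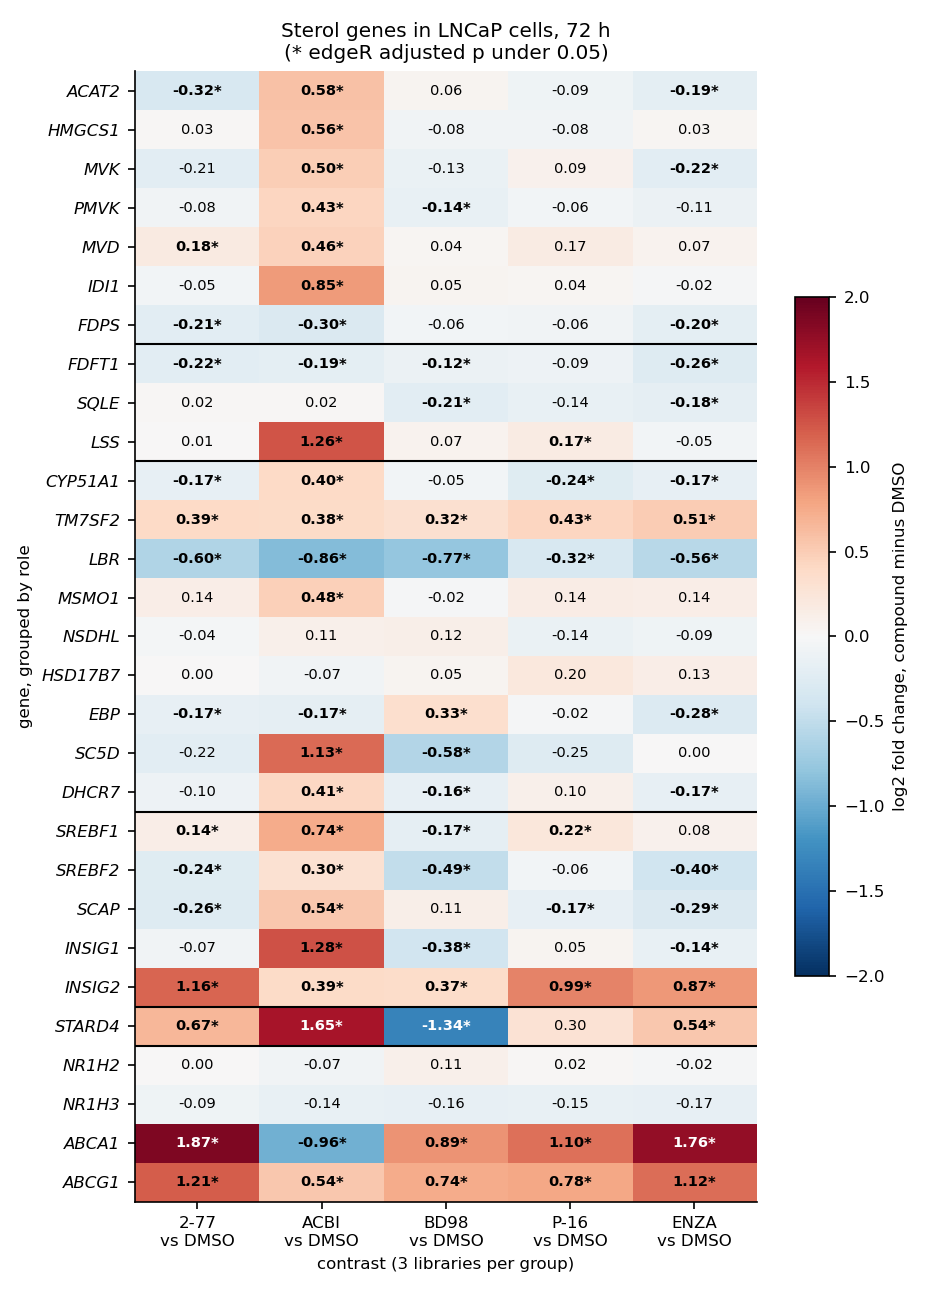
Log2 fold changes of the 29 sterol genes (rows, grouped by role with lines between groups) for 2-77, ACBI, BD98, P-16 and ENZA, each minus DMSO, with 3 libraries per group. Red is higher and blue lower than DMSO, and an asterisk marks an adjusted p under 0.05; ACBI has 19 rises, and TM7SF2, LBR, INSIG2 and ABCG1 go one way with every compound.

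The 19 enzymes of synthesis rose mostly with ACBI. With ACBI 12 rose and 4 fell, where 35.4% and 36.6% of all genes did. With 2-77 the counts were 2 and 6 (20.5% and 20.2% of all genes) and with BD98 2 and 6 (24.5% for both directions). With P-16 they were 2 and 2 (12.4% and 11.6%), and with ENZA 1 and 9 (18.2% and 18.1%). As a description, the summed level of the 19 was 1882 ± 12.1 CPM with ACBI (SD, n = 3). It was 1401 ± 4.83 CPM with 2-77, 1396 ± 7.86 CPM with BD98, 1470 ± 14.9 CPM with P-16, 1427 ± 10.9 CPM with ENZA and 1419 ± 8.23 CPM with DMSO. The largest part of this sum is TM7SF2, at 267 CPM in DMSO. It had 351, 349, 334, 359 and 381 CPM with 2-77, ACBI, BD98, P-16 and ENZA. Its higher level with each compound can thus hide falls of other enzymes in the sum.

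In the mevalonate part 6 of 7 enzyme genes rose with ACBI. IDI1, which isomerizes isopentenyl diphosphate, was at 81.1, 89.2 and 109 CPM in the ACBI libraries, against 47.6, 54.9 and 52.1 CPM in DMSO. The groups did not overlap, and the log2 fold change was 0.85 ± 0.095 (SE, edgeR adjusted p = 3.95e-07). HMGCS1, the HMG-CoA synthase of the cytosol, was at 95.8, 103 and 104 CPM with ACBI, against 69, 71.6 and 64.5 CPM in DMSO, again apart (0.56 ± 0.050, edgeR adjusted p = 2.44e-11). ACAT2, the cytosolic acetoacetyl-CoA thiolase, was at 53.2, 56.4 and 55.3 CPM with ACBI, against 36.7, 36.1 and 37.2 CPM in DMSO (0.58 ± 0.057, edgeR adjusted p = 2.77e-10). The kinase genes MVK and PMVK rose with ACBI by 0.50 and 0.43, and the decarboxylase gene MVD by 0.46. FDPS, the farnesyl diphosphate synthase, went the other way. It averaged 65.8 ± 2.14 CPM with ACBI, against 80.8 ± 0.812 CPM in DMSO (-0.30 ± 0.043, edgeR adjusted p = 4.25e-07).

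With the other compounds the mevalonate genes differed from DMSO by no more than 0.32 on the log2 scale. HMGCS1 and IDI1 were not called with 2-77, BD98, P-16 or ENZA, and their log2 fold changes lay between -0.08 and 0.05. ACAT2 fell with 2-77 (29.3 ± 0.783 CPM, against 36.7 ± 0.556 CPM in DMSO, -0.32 ± 0.060, edgeR adjusted p = 5.85e-05) and with ENZA (-0.19), and FDPS fell with both (-0.21 and -0.20). No mevalonate gene was called with P-16. MVD rose with 2-77 by 0.18, a call lost without 2-77 replicate 1 or 2 or DMSO replicate 1 or 2 (edgeR adjusted p of 0.0758 to 0.158). The MVD call was also lost in DESeq2 (DESeq2 adjusted p = 0.0658). PMVK fell with BD98 by 0.14, a call lost without BD98 replicate 1 or 2 or DMSO replicate 1 or 2 (edgeR adjusted p of 0.059 to 0.0986). MVK fell with ENZA by 0.22, a call lost without ENZA replicate 1 or 2 or DMSO replicate 1 or 3 (edgeR adjusted p of 0.0534 to 0.298), and the ENZA call of ACAT2 was lost without ENZA replicate 2 (-0.14, edgeR adjusted p = 0.101). The MVK call was also lost with library totals and without the low-count filter (edgeR adjusted p = 0.072 and 0.0536).

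ACAT2 overlaps TCP1, a chaperonin gene on the opposite strand, over 615 bases, and IDI1 overlaps WDR37 over 320 bases. The strand setting of the authors' counting is not given in the sources used here, so reads in these overlaps cannot be told apart. TCP1 fell with ACBI (-0.33 ± 0.041), where ACAT2 rose, with BD98 (-0.23 ± 0.041), where ACAT2 was not called (0.06), and with 2-77 (-0.12 ± 0.041) and ENZA (-0.19 ± 0.041), where ACAT2 fell. Other opposite-strand overlaps in the table include SREBF1 with RAI1 (118 bases), NR1H3 with ACP2 (548 bases), FDPS with RUSC1-AS1 (3813 bases), SREBF2 with SREBF2-AS1 (1561 bases) and CYP51A1 with CYP51A1-AS1 (183 bases). HMGCS1 and ABCG1 also lie inside the spans that the table gives for GUSBP1 and CBS, which cover much of a chromosome each. RefSeq names 3 pseudogenes of IDI1, 10 of FDPS, 3 of CYP51A1 and 2 of HSD17B7, so the counts of these 4 genes are uncertain.

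From farnesyl diphosphate to lanosterol, LSS alone rose strongly. LSS encodes lanosterol synthase, which closes the sterol rings, and lies on chromosome 21 from 46188446 to 46228824 (hg38). It was at 200, 198 and 174 CPM in the ACBI libraries, against 83.2, 76.8 and 79.9 CPM in DMSO. Even the lowest ACBI library was far above every DMSO library, at 2.39-fold on average (1.26 ± 0.050, edgeR adjusted p = 1.69e-19). This change ranked 804 of 15422 genes from the highest. LSS had 79 to 81.3 CPM with 2-77, 82.6 to 86.9 CPM with BD98 and 73.5 to 79.4 CPM with ENZA, none of them called. With P-16 it averaged 89.9 ± 3.61 CPM, against 80 ± 3.2 CPM in DMSO, a rise (0.17 ± 0.051, edgeR adjusted p = 0.0149) that was lost without P-16 replicate 2 or DMSO replicate 2 (0.0882 and 0.082). That call was also lost with library totals (edgeR adjusted p = 0.0604).

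The other enzymes of this stretch did not rise. FDFT1, the squalene synthase, fell with 2-77, ACBI, BD98 and ENZA (-0.22, -0.19, -0.12 and -0.26). It averaged 144 ± 2.25 CPM with ENZA, against 172 ± 3.34 CPM in DMSO (edgeR adjusted p = 3.37e-06), and the BD98 call was lost without BD98 replicate 1 (-0.09, edgeR adjusted p = 0.094). SQLE, the squalene epoxidase, averaged 44 ± 1.43 CPM with ACBI and 43.3 ± 2.4 CPM in DMSO, a difference of 0.02 ± 0.053 that was not called. SQLE fell with BD98 (-0.21) and with ENZA (-0.18), and the ENZA call was lost without DMSO replicate 2 (-0.14, edgeR adjusted p = 0.0776). Squalene synthase and lanosterol synthase, at either side of SQLE in the pathway, thus differed in direction with ACBI.

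After lanosterol, 5 of 9 enzyme genes rose with ACBI and 2 fell. SC5D, the sterol C5-desaturase, lies on chromosome 11 from 121292771 to 121313410 (hg38) and was at 198, 211 and 240 CPM with ACBI, against 100, 102 and 93.3 CPM in DMSO. Every ACBI library was far above every DMSO library (1.13 ± 0.090, edgeR adjusted p = 1.08e-08). With BD98 SC5D was lower, at 72.1, 67.7 and 58.3 CPM (-0.58 ± 0.094, edgeR adjusted p = 9.5e-05), also apart from DMSO. CYP51A1, the lanosterol demethylase, rose with ACBI (0.40) and fell with 2-77, P-16 and ENZA (-0.17, -0.24 and -0.17). MSMO1, the sterol C4-methyl oxidase, rose with ACBI alone (0.48), and DHCR7, the last reductase of the Kandutsch-Russell branch, rose with ACBI (0.41) and fell with BD98 and ENZA (-0.16 and -0.17).

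The genes of a pair of sterol C14-reductases moved against each other under every compound. TM7SF2, the reductase of the endoplasmic reticulum, averaged 351 ± 13.2 CPM with 2-77, 349 ± 31.9 CPM with ACBI, 334 ± 11.5 CPM with BD98, 359 ± 12.7 CPM with P-16 and 381 ± 10.8 CPM with ENZA, against 267 ± 9.09 CPM in DMSO. It rose in all 5 contrasts, by 0.39, 0.38, 0.32, 0.43 and 0.51, with adjusted p-values no higher than 4.91e-06 in edgeR. LBR, the lamin B receptor, has the same reductase activity in the inner nuclear membrane, and lies on chromosome 1 from 225401502 to 225428855 (hg38). It averaged 42.1 ± 5.23 CPM with 2-77, 35.2 ± 3.11 CPM with ACBI, 37.7 ± 4.79 CPM with BD98, 51.4 ± 0.471 CPM with P-16 and 43.4 ± 2.04 CPM with ENZA, against 64 ± 4.26 CPM in DMSO. It fell in all 5 contrasts, by 0.60, 0.86, 0.77, 0.32 and 0.56, with edgeR adjusted p-values of 1.33e-05, 3.62e-08, 5.87e-07, 0.0122 and 3.88e-05, and the P-16 call was lost without DMSO replicate 2 (-0.28, edgeR adjusted p = 0.0559). The proliferation markers MKI67, TOP2A and CCNB1 also fell with 2-77, ACBI, P-16 and ENZA. With BD98 TOP2A and CCNB1 fell (-0.32 and -0.23) and MKI67 was not called (-0.04). Their part in the LBR values was not tested.

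EBP, the sterol isomerase, was the enzyme gene that rose with BD98 and with no other compound. It was at 46.9, 50 and 51.2 CPM with BD98, against 38.8, 38.6 and 40.1 CPM in DMSO, with no overlap (0.33 ± 0.057, edgeR adjusted p = 1.81e-05). EBP fell with ENZA (-0.28), with 2-77 (-0.17) and with ACBI (-0.17). The 2-77 call was lost without 2-77 replicate 1 or DMSO replicate 3 (edgeR adjusted p = 0.0723 and 0.0813), and the ACBI call without ACBI replicate 3 (-0.12, edgeR adjusted p = 0.0839). Library totals also took the 2-77 call of EBP (edgeR adjusted p = 0.0558). NSDHL and HSD17B7, both of the C4-demethylation steps, were not called with any compound against DMSO.

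All 5 SREBP pathway genes among the 29 rose with ACBI. INSIG1, which retains SCAP in the endoplasmic reticulum and is itself a target of SREBP, lies on chromosome 7 from 155297772 to 155310235 (hg38). It was at 197, 198 and 213 CPM with ACBI, against 83.1, 85 and 82.2 CPM in DMSO, 2.43-fold higher with no overlap (1.28 ± 0.044, edgeR adjusted p = 5.13e-21). SREBF1, which encodes SREBP-1, was at 781, 749 and 650 CPM with ACBI, against 429, 419 and 460 CPM in DMSO (0.74 ± 0.051, edgeR adjusted p = 1.54e-12). SCAP, the sterol sensor, was at 162, 160 and 138 CPM with ACBI, against 107, 104 and 105 CPM in DMSO (0.54 ± 0.049, edgeR adjusted p = 3.77e-11). SREBF2, which encodes the SREBP that mainly drives sterol synthesis, was at 531, 521 and 459 CPM with ACBI, against 412, 390 and 421 CPM in DMSO (0.30 ± 0.043, edgeR adjusted p = 3.5e-07). ACBI replicate 3, the library with more ribosomal RNA, was the lowest of the 3 for LSS, SREBF1, SREBF2 and SCAP and the highest for SC5D, IDI1, INSIG1 and STARD4. Without it 19 of the 29 genes were still called up.

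With BD98 and ENZA parts of the same pathway were lower. SREBF2 was at 283, 287 and 298 CPM with BD98 and 314, 310 and 306 CPM with ENZA, against 412, 390 and 421 CPM in DMSO. Both groups lay wholly below DMSO (-0.49 ± 0.044 and -0.40 ± 0.044, edgeR adjusted p = 1.39e-10 and 1.53e-08). SREBF2 also fell with 2-77 (345, 346 and 345 CPM, -0.24 ± 0.043, edgeR adjusted p = 4.8e-05) and was not called with P-16 (-0.06). INSIG1 fell with BD98 (66, 66.8 and 59.5 CPM, -0.38 ± 0.046, edgeR adjusted p = 5.7e-08) and by 0.14 with ENZA, and the ENZA call was lost without DMSO replicate 2 (-0.13, edgeR adjusted p = 0.0557). SCAP fell with 2-77, P-16 and ENZA (-0.26, -0.17 and -0.29), and the P-16 call was lost without P-16 replicate 1 or DMSO replicate 1 (edgeR adjusted p = 0.0961 and 0.0541). SREBF1 rose with P-16 (0.22) and 2-77 (0.14) and fell with BD98 (-0.17). The 2-77 call of SREBF1 was lost without 2-77 replicate 1 or 2 or DMSO replicate 1 or 2 (edgeR adjusted p of 0.0937 to 0.125), and its BD98 call without DMSO replicate 3 (edgeR adjusted p = 0.0511). Library totals also took the 2-77 call of SREBF1 (edgeR adjusted p = 0.0501).

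**Figure D3:**
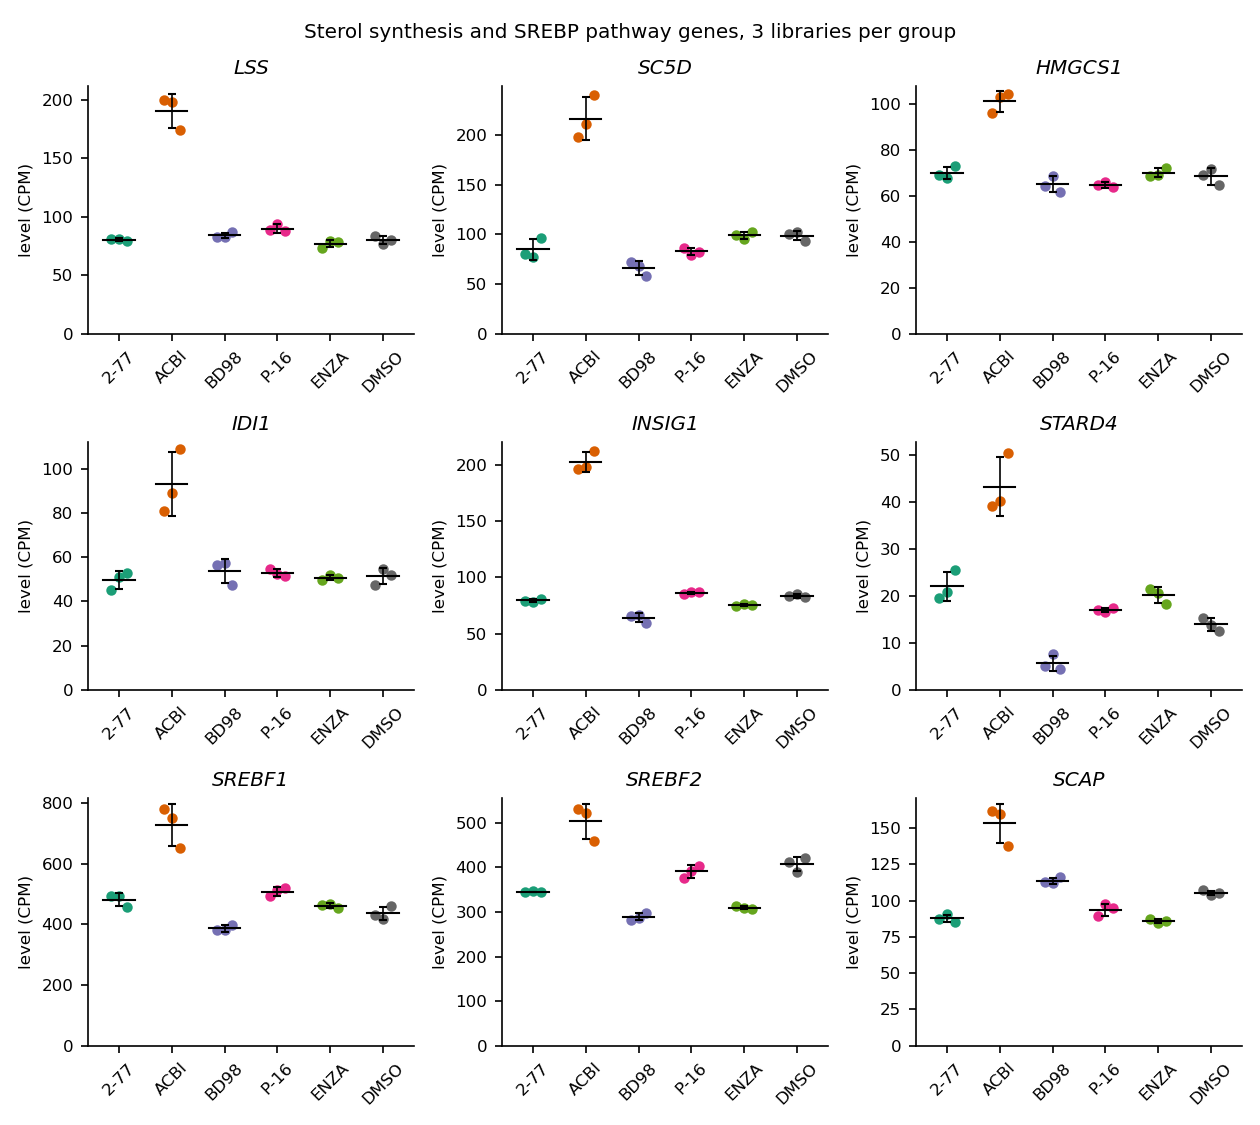
Levels in CPM of 9 sterol synthesis and SREBP pathway genes in each of the 18 libraries (points), with the group mean (line) and SD (bar) for 2-77, ACBI, BD98, P-16, ENZA and DMSO. The ACBI points lie above all DMSO points in each panel, and the BD98 points lie below them for SC5D, INSIG1, STARD4, SREBF1 and SREBF2.

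INSIG2, the INSIG gene whose transcription is not driven by SREBP, rose with every compound. It lies on chromosome 2 from 118088418 to 118110997 (hg38). It was at 64.1, 58.3 and 68.7 CPM with 2-77, 34, 38.3 and 39.4 CPM with ACBI, 38.7, 38.2 and 33.8 CPM with BD98, 59.9, 55.4 and 53.6 CPM with P-16 and 50.5, 54.2 and 50.5 CPM with ENZA, against 29.9, 29.9 and 25.8 CPM in DMSO. No treated library overlapped DMSO, and the 2-77, P-16 and ENZA libraries were all above those of ACBI and BD98. The log2 fold changes were 1.16 ± 0.073, 0.39 ± 0.076, 0.37 ± 0.076, 0.99 ± 0.074 and 0.87 ± 0.074 in that order, with edgeR adjusted p-values of 3.42e-13, 5.68e-05, 0.000215, 4.04e-11 and 2.13e-10. Both INSIG genes rose with ACBI, whereas with BD98 INSIG2 rose and INSIG1 fell.

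STARD4, a carrier that moves cholesterol between membranes and a known SREBP target, moved in opposite directions with ACBI and BD98. It lies on chromosome 5 from 111496035 to 111512597 (hg38). It was at 39.2, 40.2 and 50.5 CPM with ACBI and 4.98, 7.52 and 4.42 CPM with BD98, against 15.4, 13.9 and 12.5 CPM in DMSO. The 3 groups did not overlap. STARD4 rose 3.13-fold with ACBI (1.65 ± 0.138, edgeR adjusted p = 8.03e-09) and was 2.54-fold lower with BD98 (-1.34 ± 0.175, edgeR adjusted p = 6.43e-06). It rose with 2-77 (22 ± 3.13 CPM, 0.67 ± 0.144, edgeR adjusted p = 0.00128) and with ENZA (20.1 ± 1.72 CPM, 0.54 ± 0.145, edgeR adjusted p = 0.00706). With P-16 it averaged 17 ± 0.446 CPM, against 13.9 ± 1.44 CPM in DMSO, and was not called (0.30 ± 0.151, edgeR adjusted p = 0.178). STARD4-AS1 on the opposite strand overlaps it over 372 bases and averaged 6.66 CPM over all libraries, and reads there cannot be told apart.

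The efflux pump genes rose with 2-77, BD98, P-16 and ENZA. ABCA1, which loads cholesterol onto apolipoprotein A-I, lies on chromosome 9 from 104781006 to 104928155 (hg38) and was lowly expressed. It was at 6.26, 6.56 and 6.34 CPM with 2-77, 0.894, 1 and 0.787 CPM with ACBI, 2.62, 3.65 and 3.45 CPM with BD98, 4.31, 3.3 and 3.52 CPM with P-16 and 6.67, 5.59 and 5.51 CPM with ENZA, against 1.63, 2.12 and 1.47 CPM in DMSO. The ACBI libraries lay below all DMSO libraries and those of the other 4 compounds above them. ABCA1 rose 3.67-fold with 2-77 (1.87 ± 0.173, edgeR adjusted p = 4.26e-10) and 3.39-fold with ENZA (1.76 ± 0.175, edgeR adjusted p = 1.95e-09). It ranked 87 and 89 of 15422 genes from the highest log2 fold change in these contrasts. ABCA1 also rose with P-16 (1.10 ± 0.185, edgeR adjusted p = 4.13e-05) and BD98 (0.89 ± 0.187, edgeR adjusted p = 0.000226), and with ACBI it was 1.94-fold lower (-0.96 ± 0.226, edgeR adjusted p = 0.000415).

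ABCG1, which exports cholesterol to lipoproteins, rose with all 5 compounds and lies on chromosome 21 from 42199689 to 42297244 (hg38). It was at 25.3, 27.7 and 25.7 CPM with 2-77, 17.7, 17.6 and 14.1 CPM with ACBI, 18.3, 18.6 and 19.7 CPM with BD98, 18.7, 20.5 and 18.9 CPM with P-16 and 23.5, 25.3 and 25 CPM with ENZA, against 10.8, 11.2 and 11.8 CPM in DMSO. Every treated library was above every DMSO library. The log2 fold changes were 1.21 ± 0.083, 0.54 ± 0.086, 0.74 ± 0.086, 0.78 ± 0.086 and 1.12 ± 0.083 in that order, and the highest edgeR adjusted p was 2.15e-06, with ACBI. The receptors themselves were not called. NR1H2 (LXR beta) averaged 71.7 to 80.9 CPM in the treated groups, against 75.2 CPM in DMSO, and NR1H3 (LXR alpha) averaged 11 to 11.7 CPM, against 12.4 CPM in DMSO. The log2 fold changes of NR1H2 lay between -0.07 and 0.11 and those of NR1H3 between -0.17 and -0.09, with edgeR adjusted p-values of at least 0.121.

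**Figure D4:**
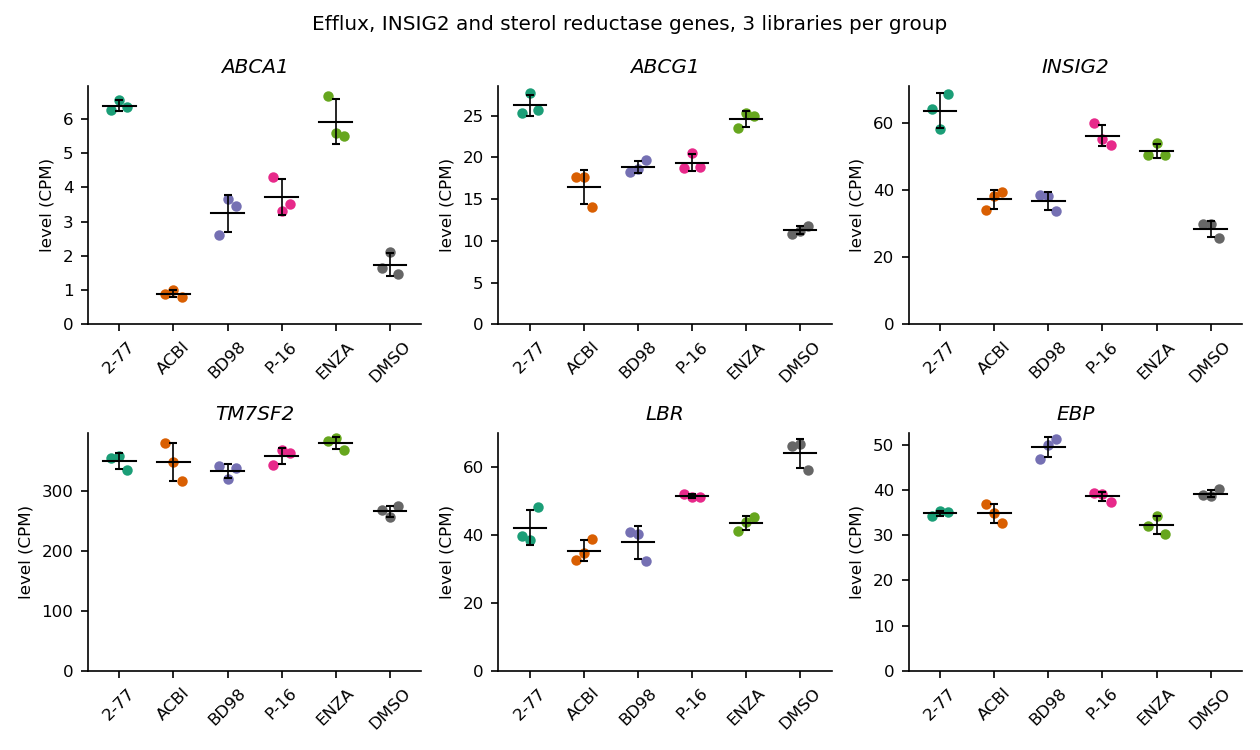
Levels in CPM of ABCA1, ABCG1, INSIG2, TM7SF2, LBR and EBP in each of the 18 libraries (points), with the group mean (line) and SD (bar) for 2-77, ACBI, BD98, P-16, ENZA and DMSO. For ABCG1, INSIG2 and TM7SF2 every treated point is above every DMSO point, for LBR every one is below, and ABCA1 is below DMSO with ACBI only.

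The compounds were also set against each other in 7 direct contrasts, each adjusted over all genes. Their doses differ except for P-16 and ENZA, so the other 6 contrasts are also contrasts of doses. Against 2-77, 17 of the 29 genes were higher with ACBI and 4 lower, where 33.4% of all genes were higher and 36.8% lower. Against BD98 the counts were 17 and 5 (33.4% and 36.2% of all genes). Against P-16 they were 18 and 8 (35% and 36.5%), and against ENZA 18 and 7 (33.3% and 36.7%). The labels give no pairing, and a correlation check could not decide whether replicate numbers pair the ACBI and 2-77 libraries. Differences given here are from the fit without a replicate block. A replicate block was also fitted over all 18 libraries, with the same effect of a number in all 6 groups. It is not a paired test of ACBI and 2-77 alone. With this block 16 genes were higher with ACBI than with 2-77 and 4 lower, NSDHL losing its call (0.15, edgeR adjusted p = 0.0502). Some of the lower counts rest on 1 library. Without ACBI replicate 3 they were 3 against BD98 and 4 against ENZA, without ENZA replicate 2 they were 4 against ENZA, and without P-16 replicate 2 they were 5 against P-16. INSIG1 was higher with ACBI by 1.35 ± 0.044 than with 2-77, 1.66 ± 0.045 than with BD98, 1.23 ± 0.044 than with P-16 and 1.42 ± 0.044 than with ENZA. LSS was higher with ACBI by 1.09 ± 0.049 than with P-16 and by 1.31 ± 0.050 than with ENZA. The STARD4 difference was largest against BD98, at 43.3 ± 6.23 CPM with ACBI and 5.64 ± 1.65 CPM with BD98, or 7.94-fold (2.99 ± 0.155, edgeR adjusted p = 9.61e-12). ABCA1 went the other way, at 0.894 ± 0.107 CPM with ACBI and 6.39 ± 0.158 CPM with 2-77, 7.12-fold lower with ACBI (-2.83 ± 0.186, edgeR adjusted p = 3.73e-14).

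Between 2-77 and ENZA few sterol genes differed. With 2-77 3 of the 29 were higher and 0 lower, where 2.94% of all genes were higher and 2.6% lower. INSIG2 was at 63.7 ± 5.22 CPM with 2-77 and 51.8 ± 2.13 CPM with ENZA (0.30 ± 0.068, edgeR adjusted p = 0.00603). SQLE (0.20 ± 0.052, edgeR adjusted p = 0.0196) and SREBF2 (0.16 ± 0.044, edgeR adjusted p = 0.0283) were also higher with 2-77. The SQLE call was lost without 2-77 replicate 1 or 3 or ENZA replicate 2 or 3 (edgeR adjusted p of 0.0563 to 0.0866). The SREBF2 call was lost without 2-77 replicate 1 or 2 or any ENZA replicate (edgeR adjusted p of 0.0643 to 0.114). With library totals it was lost too (edgeR adjusted p = 0.0888). ABCA1 and ABCG1 were not called, with differences of 0.11 (95% interval -0.18 to 0.41) and 0.09 (-0.06 to 0.24).

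P-16 and ENZA, the pair at the same dose of 10 µM, were also compared. With P-16 8 of the 29 genes were higher and 2 lower, where 11% of all genes were higher and 10.3% lower. The 8 were MVK, FDPS, FDFT1, LSS, EBP, DHCR7, SREBF2 and INSIG1. SREBF2 was at 376, 393 and 404 CPM with P-16 and 314, 310 and 306 CPM with ENZA, with no overlap (0.34 ± 0.044, edgeR adjusted p = 1.1e-06). DHCR7 was at 146, 151 and 150 CPM with P-16 and 123, 125 and 123 CPM with ENZA (0.27 ± 0.045, edgeR adjusted p = 5.49e-05). LSS was higher with P-16 by 0.22, INSIG1 by 0.19, EBP by 0.26, FDFT1 by 0.17, MVK by 0.30 and FDPS by 0.13. ABCA1 (3.71 ± 0.534 CPM with P-16 and 5.92 ± 0.647 CPM with ENZA, -0.66 ± 0.155, edgeR adjusted p = 0.00228) and ABCG1 (-0.35 ± 0.077, edgeR adjusted p = 0.00142) were lower with P-16. The MVK call was lost without ENZA replicate 2 (0.24, edgeR adjusted p = 0.0833), and the FDPS call without P-16 replicate 1 or 3 or ENZA replicate 1 or 3 (edgeR adjusted p of 0.0626 to 0.0954).

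BD98 and ENZA differed in both directions, with 8 of the 29 genes higher and 8 lower with BD98, where 21.7% of all genes were higher and 20.8% lower. Without BD98 replicate 3 or ENZA replicate 1 the higher count was 5. EBP was at 49.3 ± 2.22 CPM with BD98 and 32.2 ± 2.06 CPM with ENZA (0.61 ± 0.057, edgeR adjusted p = 5.11e-10), and SCAP was higher by 0.40 ± 0.049. STARD4 was 3.7-fold lower with BD98 (5.64 ± 1.65 CPM, and 20.1 ± 1.72 CPM with ENZA, -1.89 ± 0.164, edgeR adjusted p = 5.69e-08). SC5D (-0.58), INSIG2 (-0.50), ABCA1 (-0.87), ABCG1 (-0.38), SREBF1 (-0.25), INSIG1 (-0.24) and TM7SF2 (-0.19) were lower with BD98 as well. SREBF2 was not called between them (-0.10, 95% interval -0.19 to -0.01).

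**Figure D5:**
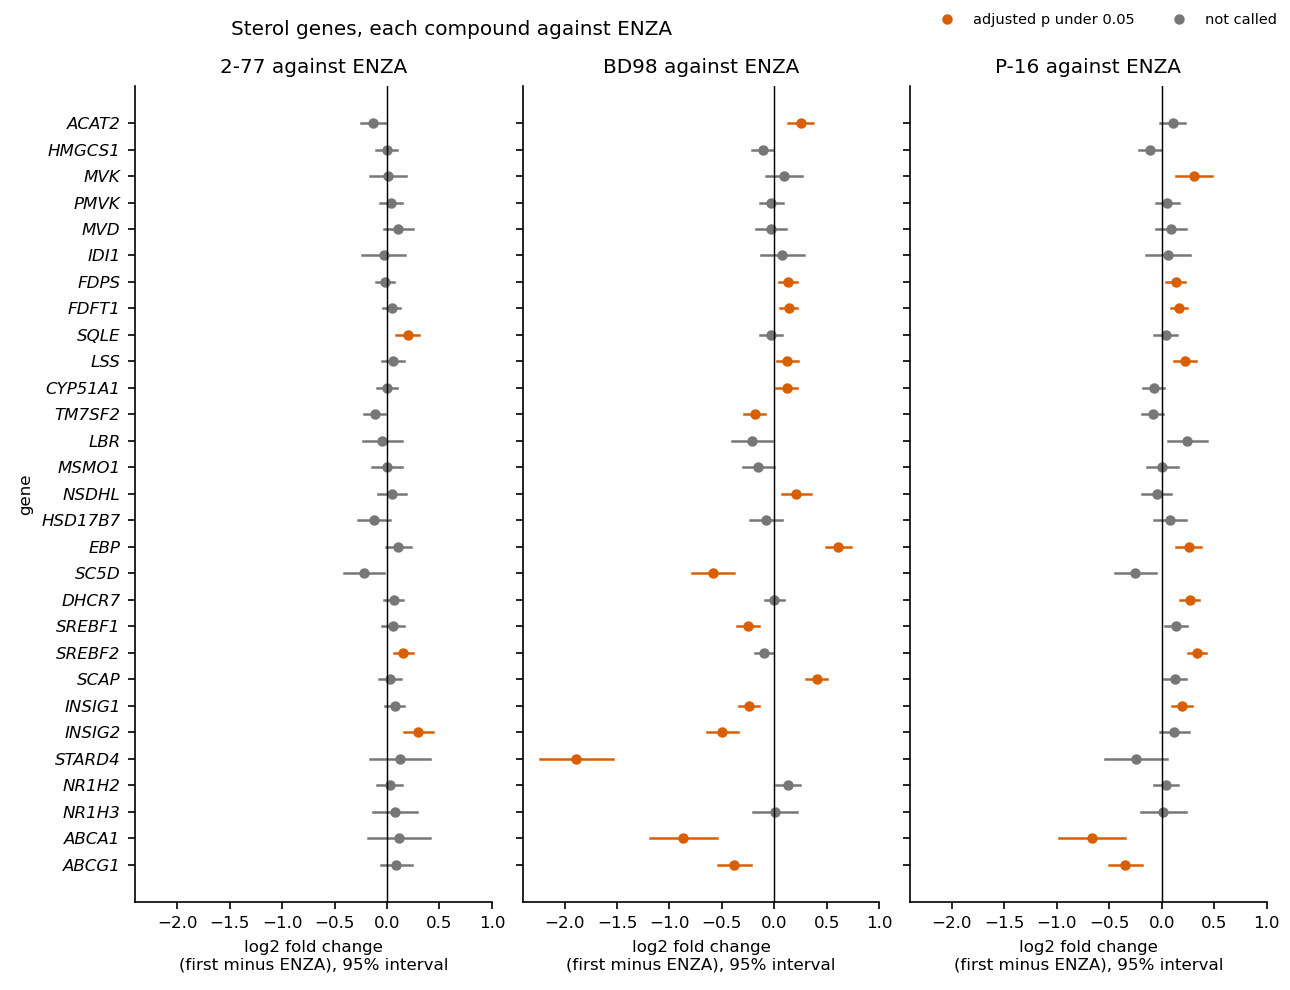
Log2 fold changes with 95% intervals of the 29 sterol genes for 2-77, BD98 and P-16, each minus ENZA, with 3 libraries per group; orange marks an adjusted p under 0.05 and grey the rest. Most 2-77 points lie near 0, while BD98 has STARD4 at -1.89 and EBP at 0.61, and P-16 has 8 genes above and 2 below 0 among those called.

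Other genes around the pathway were read from lists chosen by function. Their counts stand beside shares of all genes that rose and fell of 20.5% and 20.2% with 2-77, 35.4% and 36.6% with ACBI, 24.5% for both with BD98, 12.4% and 11.6% with P-16 and 18.2% and 18.1% with ENZA. Among 13 measured genes of sterol uptake, transport and esterification, 5 rose and 6 fell with ACBI, near those shares. NPC1, which exports cholesterol from lysosomes, had 250 ± 12.2 CPM with ACBI, against 64.1 ± 2.53 CPM in DMSO (1.96 ± 0.045, edgeR adjusted p = 1.65e-25), and fell with 2-77, BD98, P-16 and ENZA (-0.51, -0.17, -0.34 and -0.50). The lysosomal partners NPC2 and LIPA rose with ACBI by 0.75 and 0.84, and the sterol transfer gene GRAMD1C by 1.92. TMEM97, the sigma-2 receptor that binds NPC1, had 23.5 ± 1.37 CPM with ACBI, against 89.1 ± 2.14 CPM in DMSO (-1.92 ± 0.051, edgeR adjusted p = 5.88e-24). The lipoprotein receptor gene SCARB1 fell with ACBI by 0.99. In this list 3 rose and 6 fell with 2-77, 2 and 7 with BD98, 3 and 2 with P-16 and 3 and 6 with ENZA.

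Of 4 LXR partners and targets, 3 rose with each of 2-77, P-16 and ENZA, and 2 rose and 1 fell with BD98. LPCAT3, a phospholipid-remodelling LXR target, rose with 2-77, ACBI, BD98, P-16 and ENZA (0.26, 0.47, 0.41, 0.37 and 0.54). MYLIP, a ubiquitin ligase gene and LXR target, rose with 2-77, P-16 and ENZA (0.48, 0.31 and 0.35) and fell with ACBI by 0.36. With ACBI 2 of the 4 rose and 2 fell.

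Of 10 genes of SREBP cleavage and sterol-regulated degradation, 3 rose and 2 fell with 2-77, 5 and 4 with ACBI, 2 and 5 with BD98, 1 and 2 with P-16 and 3 and 3 with ENZA. SPRING1, needed for the SREBP-cleaving site-1 protease, rose with 2-77, P-16 and ENZA (0.56, 0.58 and 0.48) and fell with ACBI and BD98 (-0.23 and -0.11). In the non-sterol isoprenoid branch of 9 genes, 4 rose and 1 fell with ACBI, the fall being PDSS1, which makes the side chain of coenzyme Q (-1.55). There 1 rose and 3 fell with 2-77, 1 and 2 with BD98, 1 and 1 with P-16 and 1 and 0 with ENZA.

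Of 11 fatty acid genes that SREBP also drives, 3 rose and 7 fell with ACBI, where 36.6% of all genes fell, and their median was -0.26. ACACA, acetyl-CoA carboxylase, rose by 0.76, while SCD, the stearoyl-CoA desaturase, had 768 ± 21 CPM, against 1156 ± 7.98 CPM in DMSO (-0.59 ± 0.032, edgeR adjusted p = 4.25e-16), and MID1IP1, an activator of ACACA, fell by 1.38. With P-16 6 rose and 1 fell, among them FADS2 (0.39) and SCD (0.36). With BD98 3 rose and 7 fell, among them SCD (-0.70) and the malic enzyme ME1 (-0.79). With 2-77 4 rose and 3 fell, and with ENZA 1 rose and 6 fell.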

How the data were processed

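LNCaP RNA was measured in 18 libraries, 3 for each of 6 groups at 72 h. The deposited table gives expected counts, that is estimated reads per gene with decimals and not scaled to depth, for 20145 genes, with other columns for gene position. The submitters' processing notes name the aligner STAR, Partek software, DESeq2 and the build hg38. Versions, and the program, annotation and strand setting of the counting, are not given in the sources used here. Columns named SCO277 were taken as 2-77 and PB_16 as P-16; unused columns numbered 0. The 29 members and all lists were chosen with earlier results of these data known.

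Estimated counts were rounded and tested in edgeR 4.0.16 (R 4.3.3). filterByExpr with the 6 groups kept 15422 genes. TMM factors scaled the totals, the quasi-likelihood fit was robust and held all 18 libraries (12 residual degrees of freedom), and p-values of the F tests had a Benjamini-Hochberg adjustment across all genes tested, with a threshold of 0.05. The SE is the absolute log2 fold change divided by the square root of F, and intervals are 95%. CPM values use TMM-scaled totals. Intervals cover the spread between these libraries and counting error only. All 29 genes are named. Genes of other lists could be named where called with a log2 change of at least 1 against DMSO, or among the 3 smallest p of their list in a contrast with DMSO; beside these, some were chosen after their values were seen. In simulated data for ACBI against DMSO (15145 genes), folds of 1.25, 1.5, 2 and 4 were recovered in 56%, 72%, 90% and 98% of 50 genes each, and 5 of 163 calls were false. The simulation gave every gene the same spread, changed no other genes and gave ACBI replicate 3 no added spread. Its figures therefore check the code and do not measure the power or error of the real contrast. Counts of replicates differed beyond sampling noise in every group (chi-square per degree of freedom of 2.1 to 13.5, and 121 and 102 for ACBI replicate 3), so no library was a duplicate. Of 45 same-number pairs of libraries 3 had residual correlations over 0.1 (median -0.017). All 3 were 2-77 with ACBI (0.113, 0.123 and 0.326). Residuals were taken from the mean of the 3 libraries of a group, so these values are not independent. A shift that replicate 3 shares in both groups would also raise the values of replicates 1 and 2. The check therefore cannot decide whether the numbers pair libraries, and the main fit has no replicate block. The highest value was that of replicate 3, which had the most ribosomal RNA in both groups (2.09% with 2-77 and 8.6% with ACBI). The part of this in the correlations was not tested. Alternatives were DESeq2 1.42.0, RLE factors, library totals, no filter, a filter of at least 1 CPM in 3 libraries and 50 counts, a replicate block, a fit without the other 4 groups, removal of ribosomal RNA genes, and each library left out. Plots used matplotlib 3.10.9 (Python 3.11.15).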

Additional observations from a re-analysis of the deposited data

How the results depend on the processing

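No member changed direction while called under any alternative run. Taking only member results that were called, 1583 kept the call and 41 lost it under alternatives other than leaving out a library; with 1 library left out these were 1133 and 85. Calls gained are not in this tally. With library totals the members against DMSO with BD98 were 8 up and 6 down (5 and 10 with TMM), and 8 were lower with ACBI than with BD98 (5 with TMM). That scaling moved the median of all genes by over 0.1 for ACBI against BD98 alone (-0.126, and -0.022 with TMM). With only the 2 groups compared in the fit, P-16 against DMSO had 10 up and 5 down (6 and 3 with all groups), and the members down were 3 for ACBI against BD98, 4 for ACBI against ENZA, 1 for 2-77 against ENZA and 6 for P-16 against ENZA (5, 7, 0 and 2 with all groups). The cause of these shifts was not tested. With 1 library left out, 2-77 against ENZA had 1 to 2 members up, 0 to 1 down and 506 to 967 of all genes called (855 with all libraries). Members down ranged from 3 to 6 for ACBI against BD98, from 4 to 7 for ACBI against ENZA and from 5 to 10 for ACBI against P-16, and members up from 5 to 7 for BD98 against ENZA. The 19 rises with ACBI against DMSO were 19 under every alternative. The replicate block took the call from NSDHL in ACBI against 2-77 (0.15, edgeR adjusted p = 0.0502), the contrast with same-number correlations over 0.1. It also took it from LSS in BD98 against ENZA (0.13, edgeR adjusted p = 0.0538), where no same-number correlation was over 0.1, and from no other member. Depth limits ABCA1 most, at 0.787 CPM in its lowest library, where 3 counts equal 0.115 CPM.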
